A study of Mus musculus with 2 samples.

Results

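The 10 genes described here encode feedback inhibitors of receptor and MAP kinase signalling, namely the MAP kinase phosphatases Dusp1, Dusp4, Dusp5, Dusp6, Dusp10 and Dusp16, the Sprouty genes Spry2 and Spry4 and the Spred genes Spred1 and Spred2. They were taken by symbol from a table of 35275 genes and all 10 were found. The study compared untreated control cells of the AML12 mouse hepatocyte line (titled Young) with AML12 cells made prematurely senescent by hydrogen peroxide (titled Old). Senescent cells received 1 mM peroxide on the first day and 750 µM on the days after, for 1 h per day in serum-free medium with 23 h of recovery, over 6 days in all. Complete medium with serum, insulin and dexamethasone, in which treated cells recovered, was common to both groups. Each condition gave 1 RNA-seq library, made from pooled RNA of 3 samples, with 28021941 reads counted to genes for control and 25738075 for senescent cells. AML12 is an immortal line derived from a male CD-1 mouse that carried a transgene for human transforming growth factor alpha, itself a ligand of the EGF receptor and so an input to the pathway measured.

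As background, growth factor receptors pass their signal through RAS and RAF to the kinases MEK and ERK, while stress is passed by related chains to JNK and p38. MAP kinase phosphatases remove the phosphates from the threonine and the tyrosine that switch these kinases on, and Sprouty and Spred proteins act further up, between the receptor and RAF. Many of these genes are themselves transcribed when ERK is active, which closes a negative feedback loop, and in liver the loop is known from regeneration and from metabolic control by fibroblast growth factors.

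With 1 library per condition no difference has a replicate check, and each ratio compares these 2 libraries, not the conditions in general. Intervals are 95% intervals of counting error alone and treat each read as a separate draw. Reads amplified by PCR and carrying no molecular identifier do not each stand for a separate molecule, so the intervals can be too narrow. In bulk RNA, fewer cells of a type and less RNA per cell cannot be told apart. The hepatocyte label was checked with 12 hepatocyte markers, which all had 10 or more reads over both libraries and summed to 8607 CPM (read counts scaled to a library of 1000000) in control and 10220 in senescent cells. Krt8 was the most abundant of them per length, and the keratins Krt8 and Krt18 carried the higher sum, with 5499 and 8295 CPM, while the other 10 markers summed to 3108 and 1924 CPM. Of the 12 markers 0 were higher and 2 lower past the threshold used below, Alb (32076 and 2917 reads) and Apoa1 (2026 and 197 reads). Of all genes with at least 10 reads, 2.71% were higher and 5.60% lower past that threshold. Among markers taken up after their values were seen, Cebpa had a log2 ratio of -1.44, Serpina1a of -1.42 and Ttr of -0.91, and the secreted proteins Trf (26 and 17 reads) and Ahsg (7 and 16 reads) were near absent. Of 5 cholangiocyte markers 4 had 10 or more reads, Epcam had 0 and 1, and their sum was 1897 and 1421 CPM. Per length Spp1 led them in control, with 25430 control and 10580 senescent reads, and Krt19 in senescent cells, with 22885 and 19177 reads. The 9 stellate cell and fibroblast markers, of which 1 had 10 or more reads, summed to 0.929 and 0.363 CPM, with Col1a1 (21 and 1 reads) the most abundant in control, Dcn (0 and 4 reads) in senescent cells, and Col1a2, Col3a1, Acta2 and Lum at 0 reads in both. The 7 macrophage markers, of which 4 had 10 or more reads, summed to 194 and 82.1 CPM, nearly all from Cd14, with Adgre1 and Clec4f at 0 reads in both. At few reads, Csf1r (15 and 40) and Ptprc (27 and 76) went the other way from Cd14. Their log2 ratios of 1.58 and 1.68 count as higher, 2 of the 4 markers measured, where 2.71% of all genes were. The 6 endothelial markers, of which 0 had 10 or more reads, summed to 0.206 and 0.565 CPM, with 4 reads of Pecam1 in each library as the most abundant per length. The 95% counting interval of a gene at 0 reads reaches up to 0.127 CPM in control and 0.149 in senescent cells. Whether a gene at 0 in both libraries was absent or lost in the counting was not tested. The part of these marker differences in the values below was not tested.

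The senescent library held more mRNA of Dusp4, Dusp5, Dusp10 and both Sprouty genes, and less of Dusp1 and Dusp16. Past a threshold of 1.5 on the log2 scale, 5 of the 10 genes were higher in the senescent library (Dusp4, Dusp5, Dusp10, Spry2 and Spry4), where 2.71% of the 14383 genes with at least 10 reads were. In the other direction 2 of the 10 genes passed the threshold (Dusp1 and Dusp16), against 5.60% of all genes. Dusp6, Spred1 and Spred2 lay within it. Because the 10 genes were chosen with earlier results of these data known, their counts beside the shares of all genes are a description and not a test. All 10 genes had at least 10 reads over both libraries, so no gene was lost to the filter. Their median log2 ratio was 1.19, with quartiles at 0.24 and 1.71, and that of all genes was -0.01, with quartiles at -0.48 and 0.35. The 10 genes together took 13794 control and 17085 senescent reads. The plot of log2 ratios shows that the genes lie on both sides of the middle of all genes, with a wide gap between Dusp1 and Dusp16 on the left and the others.

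**Figure D1:**
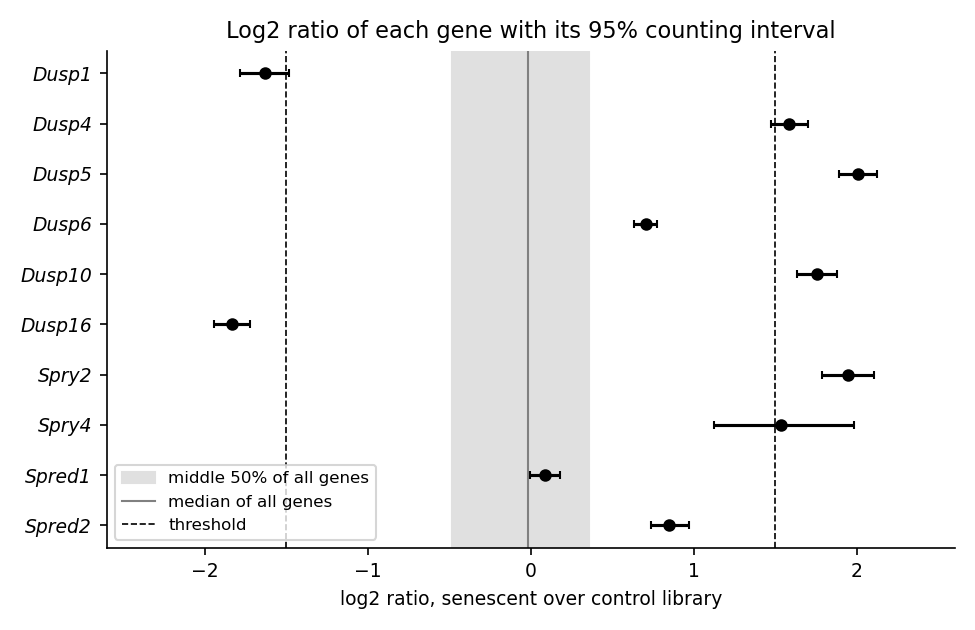
Log2 ratio of senescent over control for each of the 10 genes (points) with 95% counting intervals (bars), the threshold of 1.5 in either direction (dashed) and the median and middle 50% of all genes with at least 10 reads (grey). Dusp1 and Dusp16 lie left of the lower threshold, 5 genes lie right of the upper, and only the Spred1 interval holds 0.

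Dusp1, Dusp4 and Dusp5 encode the inducible phosphatases of the nucleus. Dusp1 (ENSMUSG00000024190, chromosome 17) dephosphorylates p38 and JNK as well as ERK and is an immediate early gene that glucocorticoids also induce. Dusp4 (ENSMUSG00000031530, chromosome 8) acts on nuclear ERK and JNK, and Dusp5 (ENSMUSG00000034765, chromosome 19) is selective for ERK, which it also holds in the nucleus. Promoter windows from RefSeq (GRCm38.p6, 250 bases before to 50 after the start) were found for 8 of the 10 genes, not for Dusp4 and Spry4. The windows of Dusp1 (chr17:26508423-26508722, minus strand) and Dusp5 (chr19:53528895-53529194, plus strand) are shown because these nuclear phosphatases moved in opposite directions. Capitals mark matches to any of the motifs searched on both strands, which were the cAMP response element TGACGTCA, the AP-1 site TGAGTCA, the ETS core CCGGAA, the TATA box TATAAA and the CArG box of serum response factor, and no matches to different motifs overlapped in the windows shown.
Dusp1: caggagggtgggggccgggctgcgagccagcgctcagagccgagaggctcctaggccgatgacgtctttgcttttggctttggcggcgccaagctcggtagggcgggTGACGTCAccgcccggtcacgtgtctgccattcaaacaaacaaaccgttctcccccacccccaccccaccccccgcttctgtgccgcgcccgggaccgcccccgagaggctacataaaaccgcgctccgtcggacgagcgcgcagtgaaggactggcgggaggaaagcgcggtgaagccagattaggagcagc
Dusp5: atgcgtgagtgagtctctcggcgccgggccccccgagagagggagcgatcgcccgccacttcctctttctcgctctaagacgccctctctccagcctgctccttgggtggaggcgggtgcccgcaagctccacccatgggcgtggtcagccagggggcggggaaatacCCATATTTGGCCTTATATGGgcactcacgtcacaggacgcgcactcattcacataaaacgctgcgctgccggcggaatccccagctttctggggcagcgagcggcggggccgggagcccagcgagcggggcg
Dusp1 has 1 cAMP response element, beginning 143 bases before the start, and 1.79% of all 32851 windows hold those letters. Dusp5 has 2 CArG boxes that adjoin each other, beginning 82 and 72 bases before the start, where 1.63% of all windows hold a CArG box and 0.0183% hold more than 1. A match is a description of the sequence, and factor binding was not measured.

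Dusp1 had 1684 control and 464 senescent reads. Levels are given as CPM per kilobase of merged exon after TMM scaling of the libraries, and that of Dusp1 was 17.5 (16.7 to 18.4) in control and 5.65 (5.15 to 6.19) in senescent cells. The senescent level was the lower, 3.09-fold, at a log2 ratio of -1.63 (-1.78 to -1.48), rank 714 from the lowest of the 14383 genes, and the interval reaches inside the threshold. Dusp4 had 872 control and 2231 senescent reads, levels of 10.9 (10.2 to 11.7) and 32.8 (31.5 to 34.2) per kilobase. It was 3.00-fold higher in the senescent library, with a log2 ratio of 1.58 (1.47 to 1.70) whose interval reaches below the threshold. Dusp5 had 773 control and 2648 senescent reads, levels of 10.8 (10.0 to 11.5) and 43.2 (41.5 to 44.9) per kilobase. It had the largest ratio of the 10 genes, 4.01-fold higher in senescent cells at a log2 ratio of 2.004 (1.89 to 2.12), rank 214 from the highest of all genes. The order of the nuclear phosphatases was therefore turned around between the libraries. Within the control library the level of Dusp5 per length was 0.615 (0.564 to 0.670) of that of Dusp1, and within the senescent library it was 7.64 (6.92 to 8.45) times that of Dusp1. The ratio of Dusp4 to Dusp1 likewise went from 0.626 (0.576 to 0.679) to 5.81 (5.26 to 6.44). These ratios are taken within a library and do not depend on how the libraries were scaled.

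Dusp6 (ENSMUSG00000019960, chromosome 10) encodes the cytoplasmic phosphatase that is selective for ERK and a widely used readout of ERK and fibroblast growth factor signalling. It had 2864 reads in control and 3981 in senescent cells, a level of 31.5 (30.3 to 32.6) and 51.2 (49.7 to 52.9) per kilobase, the highest level of the 10 genes in either library. The senescent level was higher by 1.63-fold, a log2 ratio of 0.70 (0.64 to 0.77), whose interval leaves out 0 and stays under the threshold. Its margin over Dusp5 shrank from 2.92-fold (2.70 to 3.17) per length in control to 1.19-fold (1.13 to 1.25) in senescent cells. Dusp7, a cytoplasmic relative of Dusp6, had 1208 and 2058 reads and a log2 ratio of 1.00 (0.90 to 1.10), also under the threshold. Dusp9, the remaining cytoplasmic relative, had 238 and 198 reads and a log2 ratio of -0.04 (-0.32 to 0.24) whose interval holds 0. The level of Dusp6 relative to Dusp7 was 2.54 (2.37 to 2.72) in control and 2.07 (1.97 to 2.19) in senescent cells.

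Dusp10 and Dusp16 encode the phosphatases that prefer JNK and p38 over ERK. Dusp10 (ENSMUSG00000039384, chromosome 1) had 702 control and 2020 senescent reads, levels of 7.94 (7.36 to 8.54) and 26.8 (25.6 to 27.97) per kilobase. It was 3.37-fold higher in the senescent library, with a log2 ratio of 1.75 (1.63 to 1.88). Dusp16 (ENSMUSG00000030203, chromosome 6), which shuttles between nucleus and cytoplasm, had 3402 control and 815 senescent reads, the most reads of the 10 genes in control, at levels of 15.0 (14.5 to 15.5) and 4.21 (3.93 to 4.51) per kilobase. It was 3.56-fold lower in the senescent library, with a log2 ratio of -1.83 (-1.94 to -1.72), the lowest of the 10 genes and rank 571 from the lowest of all. The stress kinase phosphatases thus moved apart. Dusp10 relative to Dusp16, per length and within a library, was 0.529 (0.487 to 0.574) in control and 6.35 (5.85 to 6.90) in senescent cells, a 12.01-fold change of that ratio. Dusp8, the remaining phosphatase of this subgroup, went the way of Dusp16, with 253 control and 55 senescent reads and a log2 ratio of -1.95 (-2.42 to -1.55). The windows of Dusp10 (chr1:184034131-184034430, plus strand) and Dusp16 (chr6:134792579-134792878, minus strand) are shown for the same contrast of direction, and neither holds any of the letters searched, hence no capitals.
Dusp10: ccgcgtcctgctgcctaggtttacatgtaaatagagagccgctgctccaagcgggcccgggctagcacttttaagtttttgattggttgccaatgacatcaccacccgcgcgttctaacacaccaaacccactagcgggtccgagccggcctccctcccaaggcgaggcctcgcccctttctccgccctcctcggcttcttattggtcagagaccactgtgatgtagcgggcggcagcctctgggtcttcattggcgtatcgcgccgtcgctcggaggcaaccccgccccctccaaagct
Dusp16: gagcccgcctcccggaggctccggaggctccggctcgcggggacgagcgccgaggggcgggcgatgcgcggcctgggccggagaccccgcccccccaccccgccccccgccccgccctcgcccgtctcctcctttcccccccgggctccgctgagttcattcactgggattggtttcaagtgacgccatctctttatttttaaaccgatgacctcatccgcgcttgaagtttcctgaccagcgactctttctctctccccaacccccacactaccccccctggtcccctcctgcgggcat
The GC content of these windows was 61.0% for Dusp10 and 68.7% for Dusp16, where the median of all windows was 52.7%.

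The 10 catalytically active MAP kinase phosphatases of the mouse, a set put together after the values were seen, comprise the 6 genes above with Dusp2, Dusp7, Dusp8 and Dusp9. Their summed level was 111 per kilobase in control and 192 in senescent cells. Dusp6 was the largest share in both, with 28.4% of the sum in control and 26.7% in senescent cells. Dusp1 went from 15.8% to 2.94% and Dusp16 from 13.6% to 2.20% of the sum. Dusp5 went from 9.71% to 22.5%, Dusp4 from 9.88% to 17.1% and Dusp10 from 7.17% to 13.9%. In control cells Dusp6, Dusp1 and Dusp16 led the makeup, and in senescent cells Dusp6, Dusp5 and Dusp4 did. Dusp2 is listed at 0 reads in both libraries and enters the sum as 0. These shares use the full merged exon length of each gene, so a transcript that leaves out annotated exons has a higher true level than given.

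**Figure D2:**
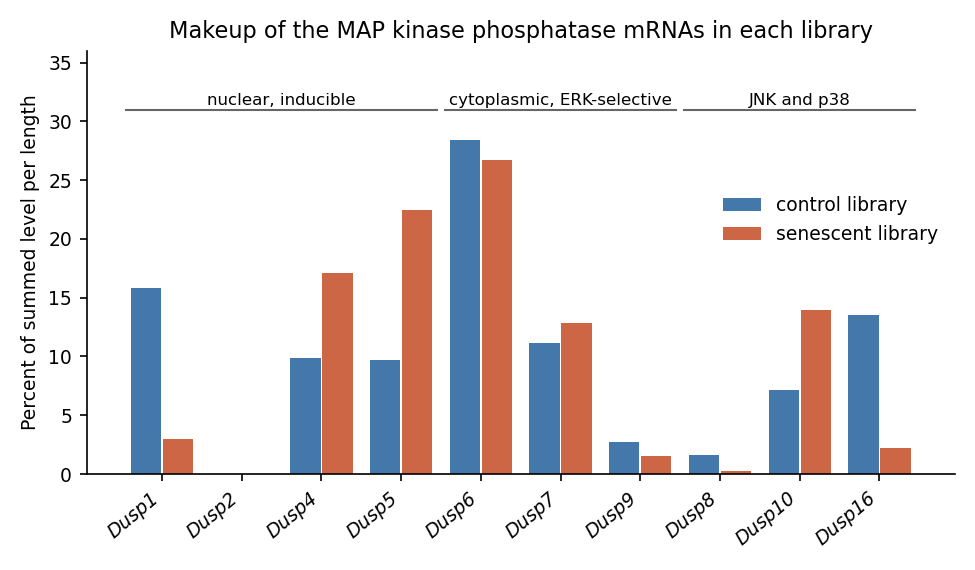
Share of each MAP kinase phosphatase in their summed level per length (percent, bars from 0) in the control and the senescent library, in the order of the subgroups. Dusp1 and Dusp16 take 15.8% and 13.6% in control and under 3% each in senescent cells, where Dusp5 and Dusp4 take 22.5% and 17.1%.

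Sprouty proteins are induced by ERK and in turn dampen RAS and RAF activation by many receptors, Spry2 in part by binding the ubiquitin ligase Cbl. Spry2 (ENSMUSG00000022114, chromosome 14) had 432 reads in control and 1419 in senescent cells, levels of 7.12 (6.46 to 7.82) and 27.4 (26.01 to 28.9) per kilobase. It was 3.84-fold higher in the senescent library, with a log2 ratio of 1.94 (1.79 to 2.10), next after Dusp5 among the 10 genes. Its promoter window (chr14:105896770-105897069, minus strand) is shown as that of the Sprouty gene with the larger change.
Spry2: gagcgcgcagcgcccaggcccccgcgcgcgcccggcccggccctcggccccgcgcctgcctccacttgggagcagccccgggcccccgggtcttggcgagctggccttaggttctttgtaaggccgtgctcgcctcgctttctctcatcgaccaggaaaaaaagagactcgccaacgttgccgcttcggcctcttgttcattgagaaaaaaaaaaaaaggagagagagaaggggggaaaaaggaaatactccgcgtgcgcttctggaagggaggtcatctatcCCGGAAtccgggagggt
It has 1 ETS core, beginning 33 bases after the start, and 14.9% of all windows hold those letters. Spry4 (ENSMUSG00000024427), which inhibits ERK activation downstream of several growth factor receptors, was the least abundant of the 10 genes, with 65 control and 162 senescent reads. Its levels were 0.470 (0.363 to 0.599) and 1.37 (1.17 to 1.60) per kilobase, 2.89-fold higher in senescent cells. The log2 ratio of Spry4 was 1.53 with an interval from 1.12 to 1.99, the widest of the 10, so its place above the threshold is not settled at this depth. Spry2 and Spry4 moved the same way, and their relative Spry1 did not share it, with 326 and 183 reads and a log2 ratio of -0.60 (-0.87 to -0.34). Per length, Spry2 exceeded Spry1 by 1.84-fold (1.59 to 2.14) in control and 10.8-fold (9.25 to 12.7) in senescent cells.

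Spred proteins carry a Sprouty-related domain and recruit neurofibromin, the RAS GTPase activating protein encoded by Nf1, to the membrane. Spred1 (ENSMUSG00000027351, chromosome 2) had 2008 control and 1819 senescent reads, levels of 10.2 (9.74 to 10.6) and 10.8 (10.3 to 11.3) per kilobase. A difference of Spred1 between the libraries was not detectable at this depth, since the interval of its log2 ratio, 0.09 (-0.01 to 0.18), holds 0. Spred2 (ENSMUSG00000045671, chromosome 11) had 992 control and 1526 senescent reads, levels of 7.39 (6.93 to 7.86) and 13.3 (12.7 to 14.0) per kilobase. It was 1.80-fold higher in the senescent library, with a log2 ratio of 0.85 (0.73 to 0.97) that lies under the threshold. The order of the Spred genes was reversed, with Spred2 at 0.726 (0.672 to 0.783) of Spred1 per length in control and 1.23 (1.15 to 1.32) times Spred1 in senescent cells. Against Spred1, Spry2 went from 0.699 (0.629 to 0.776) to 2.54 (2.36 to 2.72) per length. Nf1 itself had 1150 and 1379 reads and a log2 ratio of 0.49 (0.38 to 0.61).

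Set in order of level per length, the control library ran Dusp6, Dusp1, Dusp16, Dusp4, Dusp5, Spred1, Dusp10, Spred2, Spry2 and Spry4. The neighbours Dusp4 and Dusp5, Dusp5 and Spred1, Dusp10 and Spred2, and Spred2 and Spry2 had overlapping counting intervals and did not differ beyond them. In the senescent library the order was Dusp6, Dusp5, Dusp4, Spry2, Dusp10, Spred2, Spred1, Dusp1, Dusp16 and Spry4, and there only Spry2 and Dusp10 overlapped. Dusp1 and Dusp16 thus went from places 2 and 3 to places 8 and 9. Spry2 went from place 9 to place 4. The plot of levels shows the shift as lines that run right for most genes and left for Dusp1 and Dusp16.

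**Figure D3:**
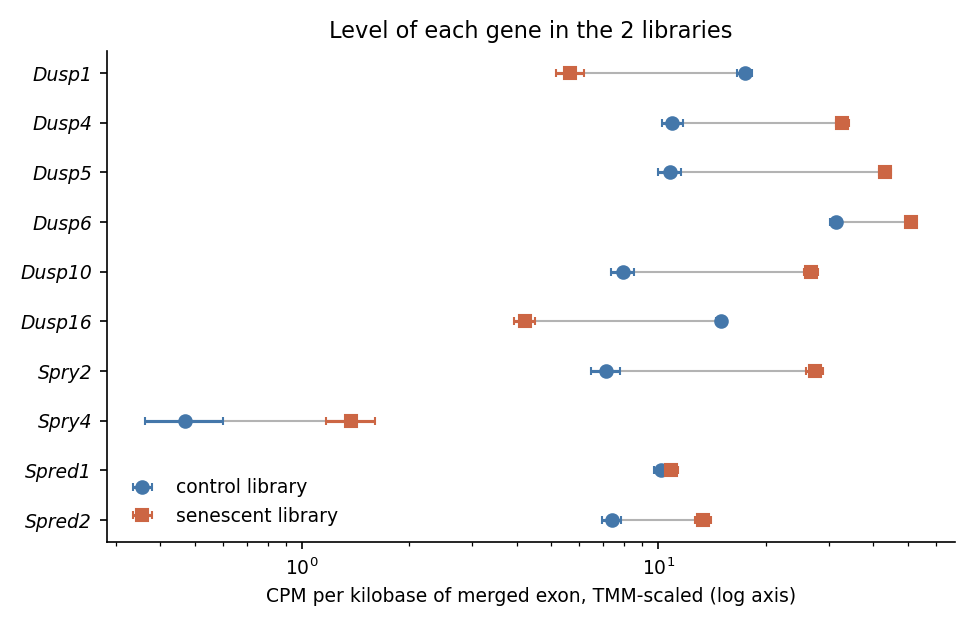
Level of each gene in CPM per kilobase of merged exon (log axis) in the control (circles) and senescent (squares) library, with exact Poisson intervals for counting error as bars. Dusp6 has the highest level in both libraries (31.5 and 51.2) and Spry4 the lowest (0.470 and 1.37).

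The 3′ untranslated part of the annotated transcripts was searched for the AU-rich pentamer AUUUA, which occurs in many short-lived mRNAs. Dusp1 had 4 in 690 bases, or 5.80 per kilobase, the densest of the 10 genes, where the median over 12368 coding genes was 1.29 per kilobase. The other 9 genes had between 0.840 per kilobase (Dusp6) and 2.77 (Spred1). Dusp1 also had 2 copies of the longer AU-rich nonamer UUAUUUAUU, which the other 9 genes lack, and 1.79% of the coding genes had 2 or more. Dusp16, the other lower gene, had 3 pentamers in 2416 bases. The lower genes therefore did not share this feature, and mRNA stability was not measured.

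Some reads of the 10 genes could belong to other genes, because the kit described does not mark strand and the use of strand in counting was not given in the sources used here. Dusp5 shares 20.5% of its 50-base words with the antisense gene AC137853.2, which lies over its start and is not in the table, so reads from there cannot be told apart and the value of Dusp5 is uncertain to that extent. The annotated span of Dusp1 overlaps Ergic1 on the opposite strand by 640 bases, and Ergic1 had 5131 and 4152 reads. Dusp10 overlaps 1700056E22Rik on the opposite strand by 1272 bases, with 109 and 80 reads counted to the latter. Gm8225 overlaps Dusp1 on the opposite strand by 956 bases and had 0 reads in both libraries. Genes that were not counted overlap Dusp1 on the same strand (AC122252.1, 1853 bases, and AC122252.4, 227 bases). Others overlap Dusp16 (Gm36328, 947 bases) and Spry4 (Gm27369, 71 bases, and Gm27804, 119 bases) on the opposite strand. Spred2 shares 1.34% of its words with Gm14612, and the remaining 8 genes, Dusp1 and Dusp10 among them, share none.

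Of 16 other dual-specificity phosphatases 14 had at least 10 reads, of which 0 were higher and 1 lower past the threshold (Dusp8), with a median log2 ratio of 0.04. These counts are to be read against the 2.71% of all genes that were higher and the 5.60% that were lower. Dusp3 was the most abundant of these phosphatases per length in control, and Dusp7 in senescent cells. Dusp3 had 2413 and 2405 reads and a log2 ratio of 0.23 (0.14 to 0.31). Of 14 genes of the MAP kinase family, to which the substrates of the phosphatases belong, 12 were measured and 0 passed the threshold. Of all genes 8.31% passed it in either direction, so that a count of 0 in a list of this length is near the background. The 12 MAP kinase genes had a median of 0.17 and a range from -0.61 to 0.92 (Mapk6). Mapk3, which encodes ERK1, was the most abundant per length and had a log2 ratio of -0.61 (-0.67 to -0.54). Of 16 MAP2 and MAP3 kinases, 17 RAS, RAF and adaptor genes, 13 RAS GTPase activating proteins or Sprouty partners, 12 other feedback inhibitors and 10 kinases activated by MAP kinases, 0 passed the threshold in either direction, to be read against the same 8.31%. Their medians were 0.16, 0.18, 0.45, 0.24 and 0.25, and their most abundant genes per length were Map2k1, Rras, Nedd4, Pebp1 and Rps6ka4. Cbl, the ubiquitin ligase that Spry2 binds, had 741 and 1271 reads and a log2 ratio of 1.01 (0.88 to 1.14).

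The lists at the ends of the pathway are read against the shares of all genes, 2.71% higher and 5.60% lower, and differences between lists were not tested. Of 17 receptor ligands 13 were measured, and 3 were higher, namely Areg (113 and 1629 reads), Btc (311 and 3157) and Ereg (163 and 980), all ligands of the EGF receptor, while Vegfa was the most abundant per length in control at a log2 ratio of -0.40. Of 16 receptor tyrosine kinases 12 were measured, with Epha2 higher, at 2547 and 6513 reads, and Fgfr2 (7341 and 1061 reads) and Fgfr3 (3706 and 306 reads) lower, and with Axl the most abundant per length. Of 18 genes transcribed downstream of ERK 16 were measured, and 3 were higher and 0 lower, with a median of 1.05 that lies beside the 1.19 of the phosphatase and Sprouty genes. Those 3 were Fosl1 (1510 and 5171 reads), Plaur (2425 and 8004) and Fosb, whose 2 control and 178 senescent reads give a log2 ratio of 6.09 (4.83 to 9.76). Ccnd1 was the most abundant of them per length, with a log2 ratio of 1.12 (1.10 to 1.14). In the same list Egr2, Ier3 and Egr1, named after their values were seen, went the other way, with log2 ratios of -1.18 (-2.01 to -0.47), -0.20 and -0.14 and intervals below 0. The plot along the pathway shows the log2 ratios of each list, and every pathway list reaches both above and below 0.

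**Figure D4:**
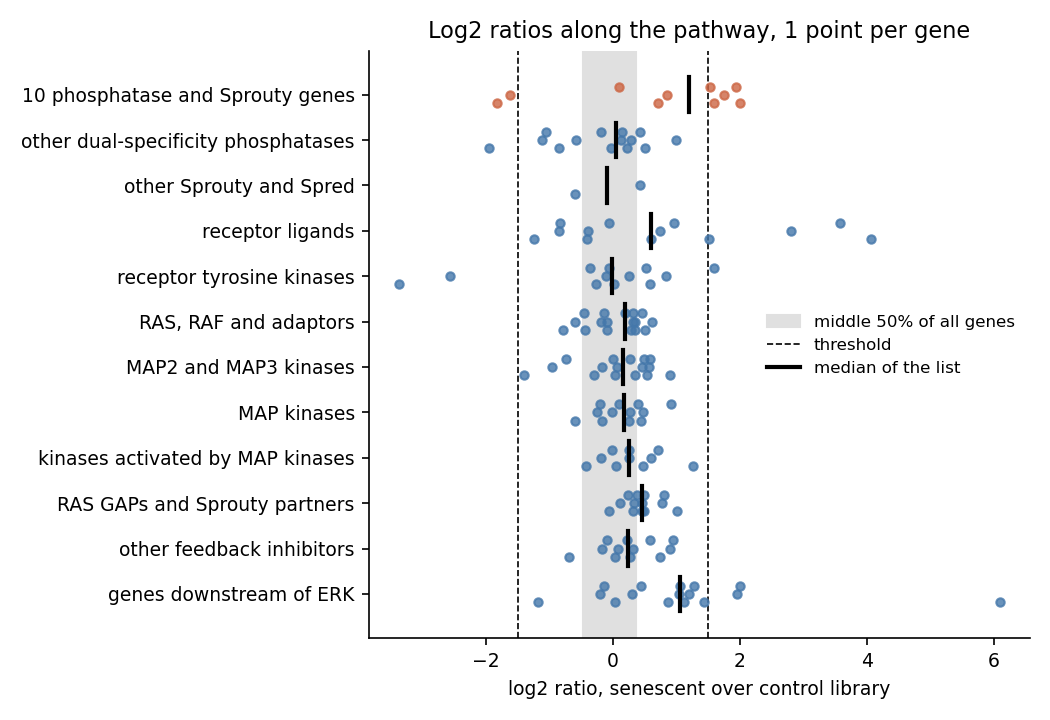
Log2 ratio of senescent over control for each gene with at least 10 reads (points) by list, with the list's median (black line), the threshold of 1.5 in either direction (dashed) and the middle 50% of all genes (grey). The medians of the 10 phosphatase and Sprouty genes (1.19) and of the genes downstream of ERK (1.05) lie right of the grey band. So do those of the receptor ligands (0.605) and of the RAS GAPs and Sprouty partners (0.45), while that of the MAP kinases (0.17) lies within it.

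The count of higher genes depends on where the threshold is set and on the scaling. At a threshold of 1 the counts were 5 higher and 2 lower, with 5.09% of all genes higher and 9.98% lower, and at a threshold of 2 they were 1 (Dusp5) and 0, with 1.52% and 3.20% of all genes. Scaling by total counts lowered every log2 ratio alike, moving the median of all genes by -0.11, which put Dusp4 at 1.48 and Spry4 at 1.43, under the threshold, and Spred1 at -0.02. Relative to that shift the ratios were those of TMM scaling.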

How the data were processed

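RNA-seq was measured in 1 control and 1 senescent AML12 library, each from pooled RNA of 3 samples. The authors deposited the count of reads of each gene without normalization, and the submitters' processing notes name CASAVA, STAR, DESeq2, edgeR and the build mm10, with no versions. The table's columns were assigned by the initials of the sample titles. Symbols were found for 97.8% of the 35275 genes in GENCODE M21 on GRCm38. Libraries were scaled by TMM (edgeR 4.0.16, R 4.3.3). Log2 ratios used a prior count of 1, and intervals are Clopper-Pearson intervals of a gene's senescent share of reads (scipy 1.17.1, Python 3.11.15). A gene was called past a log2 ratio of 1.5 in either direction where the interval excluded 0 and the libraries together gave at least 10 reads. Levels per length used merged exons and exact Poisson intervals. Alternatives were total counts, DESeq2 1.42.0 size factors, upper quartile scaling, filters of 1 and 100 reads, prior counts of 0.125 and 5, a correction for GC content and length, intervals widened for an assumed coefficient of variation of 0.1 and 0.4, and thresholds of 1 and 2. The statistics were tested on simulated counts that held counting error alone, so that test says nothing about variation between cultures. All 10 genes were named, and of each pathway list the most abundant gene per length and up to 4 with the largest ratios, marker genes being named where most abundant or at 0, and other markers and genes after their values were seen. The members and lists were chosen with earlier results of these data known. Promoter sequences are from RefSeq, and protein sequences were not used here.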

Additional observations from a re-analysis of the deposited data

How the results depend on the processing

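The number of genes higher past the threshold, 5, was 3 when libraries were scaled by total counts, 3 with intervals widened for an assumed coefficient of variation of 0.4, and 1 at a threshold of 2. The number over all genes, 390, was 332, 243 and 219 in these settings. The 3 genes in both of the former cases were Dusp5, Dusp10 and Spry2. With total counts Dusp4 and Spry4 lay under the threshold because all ratios shift together, and with the wide interval theirs held 0. With upper quartile scaling, a prior count of 5 and the GC and length correction the number was 4, without Spry4. The number higher over all genes was 360, 259 and 393 in these settings. The number of lower genes, 2, was 0 at a threshold of 2 and 2 under the other 11 alternatives. Over all genes the number lower, 805, was 460 at a threshold of 2 and between 395 and 1435 under the others. The median log2 ratio of the 10 genes lay between 1.09 and 1.20 over the 6 alternatives that can change a ratio, those of scaling, prior count and GC and length correction. Of 60 log2 ratios of single genes under those 6, 56 stayed within their counting interval, 4 lay outside it (1 each of Dusp5, Dusp6, Dusp16 and Spred1), and 0 of the 7 genes past the threshold changed sign. No paired analysis was possible because each condition has 1 library. Depth limits the ratio of Spry4 most, with 65 control reads, and differences between cultures of one condition could not be estimated.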

Other observations

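Several genes near the pathway were looked up after its values were seen and belong to no comparison above. Klb, which encodes the co-receptor through which FGF21 and FGF15 signal in hepatocytes, had 886 reads in control and 148 in senescent cells, 5.08-fold lower at a log2 ratio of -2.35 (-2.61 to -2.10). Among the receptors, Fgfr2 and Fgfr3 were likewise lower and Fgfr4 was not, with 1577 and 2010 reads and a log2 ratio of 0.58 (0.48 to 0.68). Fgfr1 is listed at 0 reads in both libraries, and whether it was absent or lost in the counting was not tested. Flrt3, a membrane protein that binds fibroblast growth factor receptors, went the other way, with 189 and 1301 reads and a log2 ratio of 3.01 (2.79 to 3.24), while its relative Flrt2 had 119 and 15 reads and a log2 ratio of -2.69 (-3.64 to -1.98). The source of these opposite directions was not tested. Of the 6 co-receptors and further family members looked up, 5 had at least 10 reads, with 1 higher and 2 lower. Of all genes 2.71% were higher and 5.60% lower. Fgfrl1 (200 and 135 reads, log2 ratio -0.335) and Fgfbp1 (10 and 7 reads, -0.255) lay within the threshold, and Kl had 0 reads in both libraries.

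Of 6 further phosphatases that act on MAP kinases, 5 had at least 10 reads and 0 passed the threshold, which 8.31% of all genes passed in either direction. Ppm1b was the most abundant per length, with 3334 and 2584 reads and a log2 ratio of -0.14 (-0.21 to -0.06). Gadd45b, a stress sensor upstream of p38 and JNK, had 1084 control and 302 senescent reads. Its log2 ratio was -1.61 (-1.80 to -1.43), lower past the threshold, as were 5.60% of all genes. Gadd45a had 1148 and 612 reads and a log2 ratio of -0.68 (-0.82 to -0.54), short of the threshold. Gadd45g had 1243 and 1709 reads and a log2 ratio of 0.69 (0.58 to 0.80).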
